A study of Mus musculus with 6 samples.

Results

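Mast cells of the colon were followed through 10 genes, Cpa3, Mcpt1, Mcpt2, Mcpt4, Cma1, Tpsb2, Tpsab1, Kit, Ms4a2 and Fcer1a, chosen by name as genes that mark these cells. Among the 23462 named genes on the array, 9 of the 10 had a probe, 10 probes in all. No probe carried an accession of Tpsab1, which the RefSeq table lists as a transcribed pseudogene. The samples were colons of male mice, 3 of genotype Control and 3 of genotype Islr knockout, with 1 single-colour Agilent array each. Per the sample source, every animal of both groups had received 3.5% DSS (dextran sulfate sodium, which damages the lining of the colon) in its water over 5 days and then had 1 day to recover. The treatment field of the same labels states no treatment, so the colitis course rests on the source field alone. The design text speaks of flow separation into Trizol without naming any cells. Strain, age, and whether Islr was deleted in all cells or only in some, are not given in the sources used here.

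Mast cells are tissue-resident immune cells that mature under stem cell factor acting on the receptor tyrosine kinase Kit. Antigen bound to IgE cross-links their high-affinity receptor, of which Fcer1a and Ms4a2 encode the alpha and beta chains, and the cells then release granules packed with histamine, heparin and proteases. In mice the chymases Mcpt1 and Mcpt2 are typical of mucosal mast cells, which increase during intestinal inflammation, whereas Mcpt4, Cma1 and the tryptase Tpsb2 are typical of mast cells of connective tissue and submucosa. Cpa3, a carboxypeptidase of the granule, is made by many mast cells of both kinds. Kit is no mast cell gene alone, since the interstitial cells of Cajal, the pacemaker cells of gut muscle, also make it.

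The stretches around the transcription starts of the members that moved together across arrays, and of Cma1, which did not move with them, are shown because they are the sequences closest to that pattern. Each runs 5′ to 3′ on the gene's own strand from 250 bases before the start to 50 bases from it, in RefSeq's annotation of GRCm38.p6. Capitals mark GATAA, the core recognised by GATA factors, or its opposite-strand form TTATC.
Cpa3 (chr3:20242132-20242431, minus strand): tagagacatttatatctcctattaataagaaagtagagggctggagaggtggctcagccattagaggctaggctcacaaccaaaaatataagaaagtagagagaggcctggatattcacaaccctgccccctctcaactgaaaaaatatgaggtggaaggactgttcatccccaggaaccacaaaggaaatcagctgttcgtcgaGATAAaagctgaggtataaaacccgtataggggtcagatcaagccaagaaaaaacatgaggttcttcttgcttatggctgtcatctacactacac
Mcpt1 (chr14:56017714-56018013, plus strand): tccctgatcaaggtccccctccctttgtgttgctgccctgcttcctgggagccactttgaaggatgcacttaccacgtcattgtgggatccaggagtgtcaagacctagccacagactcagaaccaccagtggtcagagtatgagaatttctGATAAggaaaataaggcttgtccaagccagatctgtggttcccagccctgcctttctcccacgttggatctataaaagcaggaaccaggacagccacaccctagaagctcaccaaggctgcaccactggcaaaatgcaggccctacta
Mcpt4 (chr14:56062261-56062560, minus strand): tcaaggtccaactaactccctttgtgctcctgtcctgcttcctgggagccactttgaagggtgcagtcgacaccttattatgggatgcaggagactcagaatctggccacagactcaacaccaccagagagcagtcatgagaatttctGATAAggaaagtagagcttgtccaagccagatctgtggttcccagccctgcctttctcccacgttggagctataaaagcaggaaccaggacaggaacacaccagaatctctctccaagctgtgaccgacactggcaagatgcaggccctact
Ms4a2 (chr19:11623670-11623969, minus strand): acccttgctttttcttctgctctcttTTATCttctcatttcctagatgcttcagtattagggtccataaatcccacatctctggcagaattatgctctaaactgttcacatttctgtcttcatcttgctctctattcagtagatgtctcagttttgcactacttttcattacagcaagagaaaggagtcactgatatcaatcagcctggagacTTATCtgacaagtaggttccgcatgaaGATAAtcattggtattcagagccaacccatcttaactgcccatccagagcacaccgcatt
Fcer1a (chr1:173227180-173227479, minus strand): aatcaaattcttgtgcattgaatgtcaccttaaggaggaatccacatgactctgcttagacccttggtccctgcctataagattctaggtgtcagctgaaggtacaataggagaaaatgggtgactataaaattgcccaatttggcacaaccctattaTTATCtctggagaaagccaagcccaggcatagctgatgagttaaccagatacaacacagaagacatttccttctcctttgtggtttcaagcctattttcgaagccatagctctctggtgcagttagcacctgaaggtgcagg
Cma1 (chr14:55944626-55944925, minus strand): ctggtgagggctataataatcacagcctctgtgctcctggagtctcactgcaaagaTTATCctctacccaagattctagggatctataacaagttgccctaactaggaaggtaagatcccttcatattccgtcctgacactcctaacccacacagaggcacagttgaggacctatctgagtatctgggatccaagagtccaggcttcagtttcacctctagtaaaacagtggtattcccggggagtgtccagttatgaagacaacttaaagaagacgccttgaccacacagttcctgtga

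A RefSeq entry of this kind was found for 7 of the 10 genes, and not for Mcpt2, Tpsb2 or Tpsab1. GATAA on either strand was found in 6 of these 7, in all but Kit, against 25.4% of the 32851 promoter windows in the table. Here and for the motifs below, members were counted by gene and the share over all was counted by window. Counted from the start, with negative positions upstream, the first base of GATAA lay at -45 in Cpa3, -98 in Mcpt1 and -102 in Mcpt4. In Ms4a2 there were 3 matches, at -10 on the gene's strand and at -37 and -224 on the other. The Cma1 match was on the other strand at -194, and that of Fcer1a likewise at -92. The motifs CACGTG and CATGTG of MITF, a transcription factor of the mast cell lineage, were searched on both strands as well. CACGTG was in none of the 7, against 7.15% of all windows, and CATGTG in Fcer1a only, against 14.2%. A match is a description of the letters. The windows of Mcpt1 and Mcpt4 were 81.4% identical over 312 aligned columns, while the other pairs among Mcpt1, Mcpt4, Cma1 and Cpa3 were 48.8% to 52.2% identical.

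Levels are given as log2 of the processed signal minus the array's 75th percentile, so a probe at 0 is as bright as the 75th percentile of its array. A probe's level is compared between arrays and never with another probe's. Islr, the targeted gene, was first checked against the labels. It read 1.57, 1.24 and 1.21 in the controls and -1.40, -0.93 and -1.31 in the knockouts. Every knockout was below every control. The limma test, with control 1 left out for its outlier mark, gave a difference of -2.44 (SE 0.21) that passed (Benjamini-Hochberg adjusted p = 0.0171, and 0.0580 without knockout 3). The exact two-sided permutation test gave p = 0.1, the smallest that 3 against 3 arrays allow. In that fit across 35351 probes, 3.97% were called at a 5% false discovery rate, 2.42% lower and 1.55% higher in the knockouts. The arrays had a 75th percentile of 4910.5 to 7110.5 signal units, and 69.4% to 75.4% of the spots of an array were well above background. All arrays shared 1 slide and 1 scan, and the controls lay in slide row 1 and the knockouts in row 2, so row and genotype cannot be told apart. Among the controls, replicate 2 stood apart in the epithelial genes: the mean level of 10 colon epithelium markers was 0.10 there, against 2.42 and 1.70 in the other controls and 2.69 to 3.08 in the knockouts. Values of members and of gene lists are given without this array as well where leaving it out changed a call or moved them by over 1.5 times.

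None of the mast cell genes passed the test with all 6 arrays. Of the 9 with a probe, 4 could be tested (Mcpt2, Mcpt4, Cma1 and Tpsb2), and 0 were called, against 3.97% of all probes. The limma p before adjustment was under 0.05 for 1 of the 4, Tpsb2, and for 26.8% of all probes. Of these 4, 2 were lower and 2 higher in the knockouts, with a median difference of -0.085, and over all probes tested the median was 5.75e-05. The median was -0.40 over 6 genes with marked spots kept, and -0.57 over all 9 measured genes when the filter on dim probes was dropped as well. The other 5 were not tested: Cpa3, Ms4a2 and Fcer1a were not well above background on all arrays of either group, and Mcpt1 and Kit had too few usable spots. The genes did not vary as a single block, and they are therefore described by role. In bulk RNA, fewer mast cells and less RNA per mast cell cannot be told apart.

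The mucosal chymase Mcpt1 was well above background on every array, bright in controls 1 and 3 and lower in control 2. Its processed signals were 2491.1, 484.6 and 3423.7 in the controls and 627.5, 806.6 and 301.1 in the knockouts. As levels these were -1.35, -3.88 and -0.93 against -2.97, -2.85 and -4.26. Control 2 lay inside the range of the knockouts, so the groups overlapped, while both other controls were above every knockout. The control spots of arrays 1 and 3 carry the scanner software's outlier mark. With marked spots kept, the mean was -2.05 ± 1.59 in the controls and -3.36 ± 0.78 in the knockouts (SD, n = 3 each), a difference of -1.31 (SE 0.80; limma adjusted p = 0.335; 4.85% of all probes were called in that fit).

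Mcpt2, the other mucosal chymase, is taken from a probe at -3.38, -6.54 and -2.52 in the controls and -4.84, -4.50 and -4.20 in the knockouts. It was not well above background in control 2 and was so on the other 5 arrays. The knockouts were close to each other and lay between control 2 and the remaining controls. The means were -4.15 ± 2.12 and -4.51 ± 0.32 (SD, n = 3 each), which differed by -0.36 (SE 0.97; limma adjusted p = 0.839). The sign of this difference turned when the arrays were weighted by their quality (0.89) and when control 1 (0.020) or control 3 (0.45) was left out.

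Mcpt4, a chymase that degrades matrix and peptide substrates, gave signals of 2208.4, 493.5 and 3359.7 in the controls and 704.8, 635.1 and 338.3 in the knockouts. The levels were -1.52, -3.85 and -0.96 against -2.80, -3.20 and -4.09, and all 6 spots were usable and well above background. The order of the arrays was near that of Mcpt1: high in controls 1 and 3, low in control 2 and in every knockout. The means of -2.11 ± 1.53 and -3.36 ± 0.66 (SD, n = 3 each) differed by -1.25 (SE 0.76; limma adjusted p = 0.333). The Pearson correlation of Mcpt1 and Mcpt4 over the 6 arrays was 0.99. The genes are close paralogs on chromosome 14, so each probe may also capture the other's transcript.

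Cpa3 was measured above background on few arrays. Its signals were 509.3, 54.7 and 358.0 in the controls and 38.6, 44.1 and 24.5 in the knockouts. Only controls 1 and 3 were well above background. As levels the arrays read -3.64, -7.02 and -4.19 in the controls and -6.99, -7.05 and -7.88 in the knockouts. Control 2 thus sat among the knockouts, between knockouts 1 and 2. With no filter on dim probes, the fitted difference was -2.36 (SE 0.88; limma adjusted p = 0.194; 0.935% of all probes were called in that fit).

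The chains of the IgE receptor showed the same arrays on top. Ms4a2, the signal-amplifying beta chain, read -5.41, -6.30 and -4.33 in the controls and -6.01, -6.71 and -7.01 in the knockouts, and was well above background in controls 1 and 3 only. Its second probe was not well above background on any array. Fcer1a, the IgE-binding alpha chain, read -5.28, -5.90 and -4.85 against -5.72, -5.72 and -6.29, again with controls 1 and 3 alone well above background. Without the filter on dim probes the fitted differences, which rest on dim spots, were -1.23 (SE 0.53; limma adjusted p = 0.247) for Ms4a2 and -0.57 (SE 0.31; limma adjusted p = 0.291) for Fcer1a. In both genes the ranges of the groups overlapped through control 2.

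**Figure D1:**
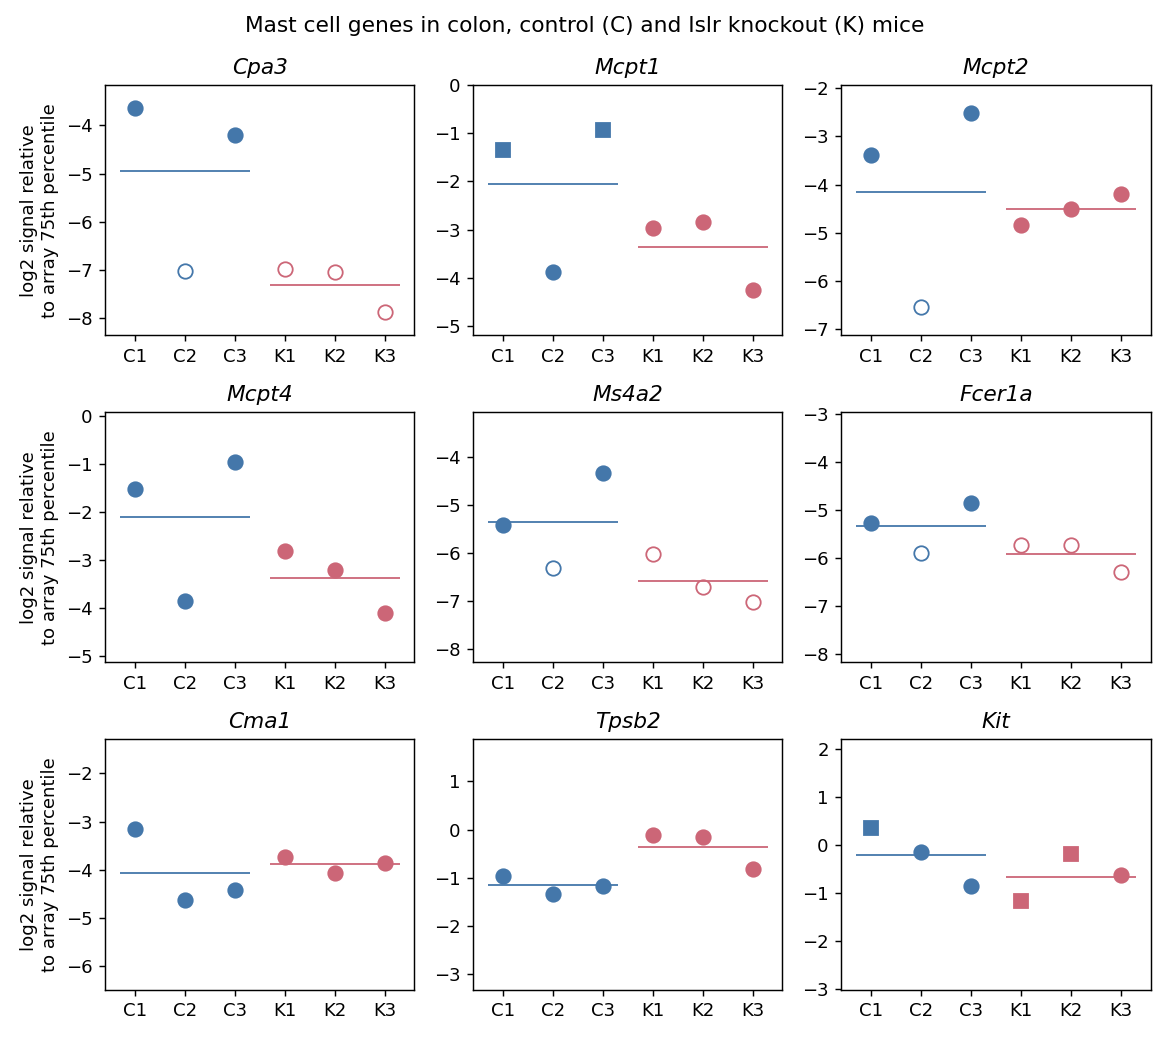
Level of each mast cell gene on each array (log2 signal, with 0 at the 75th percentile; C1 to C3 controls in blue, K1 to K3 knockouts in red), with lines at the group means. Squares are spots with an outlier mark, open circles are not well above background, and all panels span the same height; controls 1 and 3 stand above the other 4 arrays for Cpa3, Mcpt1, Mcpt2, Mcpt4, Ms4a2 and Fcer1a, and the knockouts are above the controls for Tpsb2.

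The arrangement shared by Cpa3, Mcpt1, Mcpt2, Mcpt4, Ms4a2 and Fcer1a, with controls 1 and 3 above control 2 and above every knockout, was found in 6 of the 9 measured members. It was noticed after the values were seen, and 3.67% of all probes well above background on at least 2 arrays had the same arrangement. Cpa3, Ms4a2 and Fcer1a met that background rule through controls 1 and 3 alone, which nearly fixes the arrangement for them, so the count is a description and nothing is read from it. Mcpt4 correlated at 0.93 with Cpa3, at 0.93 with Ms4a2 and at 0.97 with Fcer1a over the 6 arrays, and Ms4a2 at 0.95 with Fcer1a. Mcpt2 followed less closely, at 0.78 with Mcpt4 and 0.68 with Cpa3. These coefficients describe 6 arrays that share a slide and fall into a high and a low set, and carry no test.

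These 6 genes were singled out because controls 1 and 3 were above control 2 and above every knockout, a choice that already uses the knockout values. Leaving control 2 out therefore had to enlarge each difference, and the values without it are a description of the other 5 arrays. Mcpt4 then differed by -2.12 on the log2 scale (SE 0.42; limma adjusted p = 0.0982) and Mcpt2 by -1.56 (SE 0.34; limma adjusted p = 0.111). Mcpt1, with marked spots kept, differed by -2.22 (SE 0.46; limma adjusted p = 0.0966; 0.442% of all probes called). Cpa3 had a limma adjusted p of 0.0421, where 0.219% of all probes were called. Since no knockout array measured Cpa3 above background, its size is a bound, at least 3-fold lower in the knockouts than in controls 1 and 3. A bound sets the mean of the bright group against the lowest signal that counted as well above background on each dim array. The bounds for Ms4a2 and Fcer1a were at least 1.55-fold and 1.35-fold, with limma adjusted p of 0.139 and 0.207. The median over the 9 measured genes, with marked spots kept, was -1.56 without control 2. Cpa3, Ms4a2 and Fcer1a became testable only because both remaining controls were above background, so their difference was partly set by that filter. Control 2 was also the array with the lowest epithelial marker signal, and the part of that in the mast cell values was not tested.

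**Figure D2:**
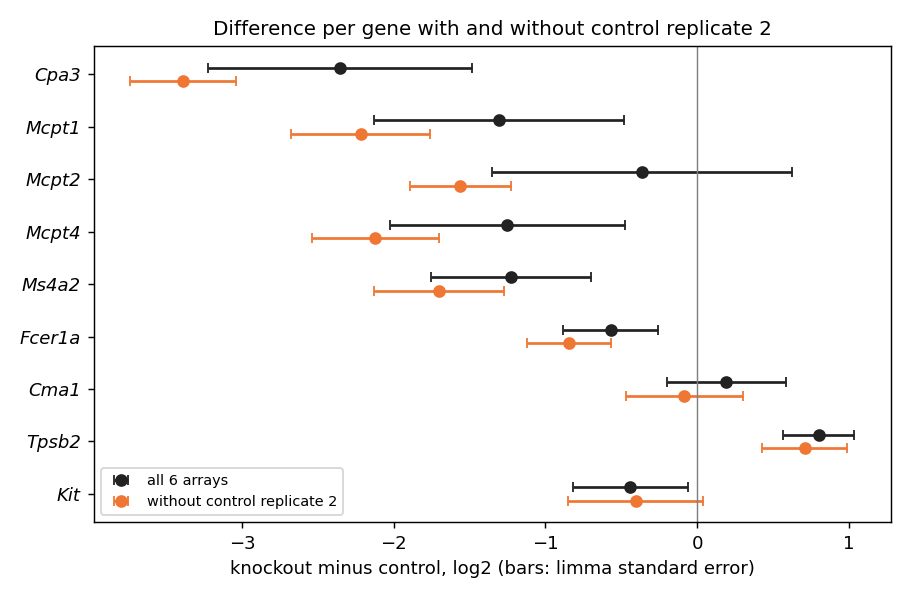
Knockout minus control difference of each mast cell gene (log2), with the limma standard error as bars. Black points use all 6 arrays with marked spots kept and no filter on dim probes, and orange points leave out control 2; the point of Mcpt4 moves from -1.25 to -2.12 and that of Mcpt2 from -0.36 to -1.56. Points of Cpa3, Ms4a2 and Fcer1a use probes that were dim in every knockout, so their sizes are not measured and cannot be ranked.

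The remaining members took other courses. Tpsb2, a granule tryptase stored with heparin, read -0.97, -1.34 and -1.17 in the controls and -0.11, -0.16 and -0.81 in the knockouts. Every knockout was above every control, an arrangement that 16.5% of the probes usable on all arrays showed. The means of -1.16 ± 0.19 and -0.36 ± 0.39 (SD, n = 3 each) differed by 0.80 (SE 0.23), which did not pass the limma test (adjusted p = 0.0933; 0.0340 with array weights and 0.0702 to 0.273 in the other alternatives). Tpsb2 did not follow Mcpt4 over the arrays (r = -0.18). The difference of Tpsb2 was above 0 and those of Mcpt1, Mcpt4 and Cpa3 were below it, and the contrast between these genes was not tested.

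Cma1, a chymase-family protease of connective tissue mast cells that acts as an elastase in mice, read -3.16, -4.62 and -4.43 in the controls and -3.73, -4.06 and -3.85 in the knockouts. Control 1 was highest and the other controls were lowest, so the knockouts fell within the controls. The means were -4.07 ± 0.80 and -3.88 ± 0.17 (SD, n = 3 each), a difference of 0.19 (SE 0.39; limma adjusted p = 0.783) that became -0.084 without control 2. Its correlation with Mcpt4 was 0.23.

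Kit gave signals of 8086.6, 6416.7 and 3619.0 in the controls and 2191.7, 5127.0 and 3737.2 in the knockouts. In levels these were 0.35, -0.15 and -0.85 against -1.16, -0.18 and -0.63, with outlier marks on control 1 and knockouts 1 and 2. The groups overlapped, and with marked spots kept the difference was -0.44 (SE 0.37; limma adjusted p = 0.479). Kit did not follow Mcpt4 (r = 0.023). Of 4 markers of interstitial cells of Cajal, which share Kit, the channel Ano1, named after its values were seen, read 1.64, 1.33 and 1.65 in the controls and 2.09, 1.63 and 1.55 in the knockouts. Etv1, a transcription factor of these cells, read 1.28, 0.86 and 1.12 against 0.14, 0.90 and 0.73, a difference of -0.40 (SE 0.28; limma adjusted p = 0.398). It was the only tested gene of the 4, and its direction was not that of the list. The mean level of the 4 markers, with marked spots kept, was -0.39, -0.68 and -0.24 in the controls. In the knockouts it was -0.13, -0.17 and -0.15. With marked spots kept, 3 of the markers were tested, with a median difference of 0.22, and 0 were called, where 4.85% of all probes were called.

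Mcpt1, Mcpt2, Mcpt4 and Cma1 belong to the chymase locus of chromosome 14, in the order Cma1, Cma2, Mcpt1, Mcpt2, Mcpt9, Mcpt4, Mcpt8, followed by Ctsg and the granzymes down to Gzmb. The neighbours were added after values of the data had been seen. Cma2 read -3.78, -5.02 and -1.69 in the controls and -3.74, -5.04 and -5.60 in the knockouts, a difference of -1.30 (limma adjusted p = 0.384). Mcpt9 read -5.22, -4.40 and -4.48 against -4.57, -4.23 and -4.38 and so held a narrow range between Mcpt2 and Mcpt4, which varied widely. Gzmb, a granzyme of cytotoxic lymphocytes at the far end, read -0.31, -0.96 and -1.53 against -0.77, -2.20 and -2.40 (-0.85; limma adjusted p = 0.320). The genes of the locus did not share a single order of the arrays.

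Beyond the members, those other genes of mast cells that passed the test were all lower in the knockouts. Of 21 further mast cell genes 12 were tested by their brightest probe; 8 were lower and 4 higher in the knockouts, with a median of -0.39, and 2 were called, both lower, where 2.42% of all probes were called lower. The unadjusted limma p was under 0.05 for 6 of the 12, and for 26.8% of all probes. Without control 2, 0 of 9 tested were called, where 0.219% of all probes were called. Counting any of the 30 probes of the 21 genes, 3 genes fell: Hdc, Il1rl1 and Mitf. This count gives a gene with several probes more chances, and the matching share over all genes was not computed. None of the 3 is made by mast cells alone, and neutrophil genes fell on the same arrays, as given further on. The probes of Gata1, Ctsg, Cyp11a1, Mrgprb1 and Mrgprb2 were not well above background on any array.

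Hdc encodes histidine decarboxylase, the enzyme that makes histamine. Its brighter probe read -1.63, -0.74 and -1.04 in the controls and -3.98, -3.24 and -2.65 in the knockouts. Every knockout was below every control, control 2 included, as for 18% of the probes usable on all arrays. The difference was -2.40 (SE 0.40; limma adjusted p = 0.0441, control 1 left out for its outlier mark). The second probe differed by -2.28 (SE 0.26, limma adjusted p = 0.0216) and was above background in no knockout, so its size is a bound, at least 1.91-fold. It entered the test only because all controls were above background, so its difference and calls were partly set by that filter. Only 4 leave-one-out fits could test the brighter probe, and it was called only without control 1. That spot was already missing, so this fit left the probe's own values unchanged and is no check of the call. The second probe was called only without control 1 or knockout 2. The brighter probe was also not called without the filter on dim probes (adjusted p = 0.0689 by limma).

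Il1rl1 encodes ST2, the receptor through which interleukin 33 acts on mast cells, type 2 innate lymphoid cells and regulatory T cells. One probe read -0.77, 0.53 and 0.56 in the controls and -4.02, -2.64 and -2.55 in the knockouts, a fall of -3.18 (SE 0.52; limma adjusted p = 0.0358). Another differed by -3.65 (SE 0.34, limma adjusted p = 0.0159) and was well above background in no knockout, so its size is a bound, at least 2.55-fold. That probe entered the test only because all controls were above background, so its difference and calls were partly set by that filter. It passed in 5 of 6 leave-one-out fits and had a limma adjusted p of 0.0530 without knockout 3. The first was called only without control 1 or knockout 2, and had an adjusted p of 0.0562 without the filter on dim probes. The brightest probe, not testable for outlier marks, read 1.18, 2.21 and 2.25 against -5.40, -1.07 and -0.96. All 3 probes placed every control above every knockout, with control 1 lowest among the controls. Of the probes usable on all arrays, 18% placed every control above every knockout.

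Mitf, the transcription factor, read 0.56, 0.60 and 0.48 in the controls and -0.53, -0.30 and -0.36 in the knockouts on its brightest probe. It fell by 0.94 (SE 0.14; limma adjusted p = 0.0329), and a second probe fell by 0.85 (SE 0.16; limma adjusted p = 0.0440). The third probe differed by -0.57 without passing (limma adjusted p = 0.0861). Both called probes kept their call in the leave-one-out fits only without control 1, and the second lost it without the filter on dim probes (limma adjusted p = 0.0643) and with normexp and the 75th percentile. Ltc4s, which makes leukotriene C4, had a difference of 0.68 (SE 0.19; limma adjusted p = 0.0851) and did not pass. Every knockout was above every control, as for 16.5% of the probes usable on all arrays. Tpsg1, a membrane-anchored tryptase named after its values were seen, read 1.14, -4.26 and -2.33 in the controls and 1.12, 0.11 and -0.46 in the knockouts and was not testable for outlier marks on all knockout spots.

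**Figure D3:**
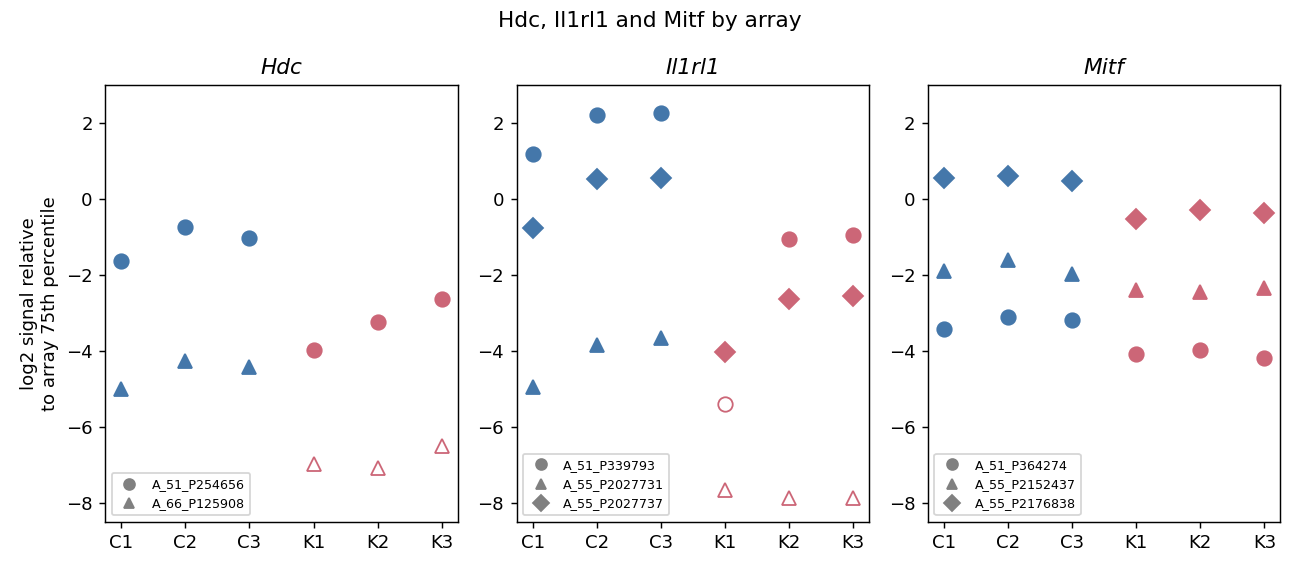
Levels of every probe of Hdc, Il1rl1 and Mitf on each array (log2 signal, with 0 at the 75th percentile; controls C1 to C3 in blue, knockouts K1 to K3 in red; marker shapes are probes, open markers are not well above background). On every probe the 3 controls, control 2 included, stand above the 3 knockouts, as on 18% of the probes usable on all arrays.

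Among 19 signals for mast cell growth and homing, 13 were tested, 10 were lower and 3 higher, with a median of -1.49 (-0.95 without control 2), and 3 fell, where 2.42% of all probes were called lower. Tslp, an epithelial and stromal cytokine that acts on mast cells and dendritic cells, fell by 2.0 (SE 0.36; limma adjusted p = 0.0419). Tgfb1, which induces Mcpt1 in mucosal mast cells, fell by 1.49 (SE 0.29; limma adjusted p = 0.0468), and its second probe differed by -1.31 without passing (limma adjusted p = 0.0524). Cxcr2, a chemokine receptor used by mast cell progenitors and by neutrophils, fell by 1.93 (SE 0.22; limma adjusted p = 0.0211). Leaving out 1 array kept the Tslp call only without control 1, that of Tgfb1 only without knockout 2, and that of Cxcr2 only without control 1 or knockout 2. Without the filter on dim probes, Cxcr2 alone of the 3 was called (limma adjusted p = 0.0654 for Tslp and 0.0714 for Tgfb1). Without control 2, 0 of 12 tested signals were called, where 0.219% of all probes were called. Il33, the ligand of the Il1rl1 receptor and named after its values were seen, read 0.26, 1.09 and 1.18 in the controls and -2.71, -0.07 and -0.89 in the knockouts, a difference of -2.07 (SE 0.66; limma adjusted p = 0.109). Kitl, which encodes stem cell factor and was also named after its values were seen, read 1.49, 1.25 and 1.26 against 0.83, 1.28 and 0.90 on its brightest probe, with overlapping groups and too few usable spots for the test.

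Of 18 genes that carry the signal of the IgE receptor, 13 were tested, 10 lower and 3 higher, with a median of -0.46, and 1 was called, against 3.97% of all probes, so that no change of the group is read from it. That gene was Pla2g4a, the phospholipase that frees arachidonic acid, with a difference of -1.03 (SE 0.18; limma adjusted p = 0.0468; 2 usable knockout arrays), called in the leave-one-out fits only without control 1 and not called without the filter on dim probes (limma adjusted p = 0.0690). Fcer1g, the gamma chain shared with other Fc receptors and made by many myeloid cells, differed by -0.95 (SE 0.26; limma adjusted p = 0.0848). Syk, the kinase recruited by that chain, differed by 0.45 (SE 0.15; limma adjusted p = 0.118). Without control 2, 0 of 12 tested genes of this list were called, where 0.219% of all probes were called.

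Markers of other cells that share mast cell genes or the tissue were read on the same arrays. Of 5 basophil markers, Prss34 and Cd200r3 were not well above background on any array, and the protease Mcpt8 was so in control 1 alone (-3.21, against -5.67 or lower elsewhere). Itga2, the 1 tested, differed by -0.53 (limma adjusted p = 0.219). Of 9 eosinophil markers 6 were tested, 3 lower and 3 higher. Among them 1 was called, lower, where 2.42% of all probes were called lower, and 0 of 6 without control 2. That was Prg2, an eosinophil granule protein also found in mast cells, which fell by 1.89 (SE 0.31, limma adjusted p = 0.0354). In the leave-one-out fits it was called without control 1 or knockout 2 only. Its limma adjusted p was 0.0546 without the filter on dim probes. Ear6 (-0.44; limma adjusted p = 0.159) and Siglecf (0.76; limma adjusted p = 0.469) did not pass. Of 12 neutrophil markers 9 were tested and 7 called, where 3.97% of all probes were called. S100a8, S100a9, Cxcr2, Camp, Retnlg and Mmp8 fell, with differences from -1.20 (Camp) to -4.47 (Retnlg), and Ltf rose by 3.66 with 2 usable knockout arrays. Limma called 0 of 7 testable neutrophil markers without control 2 (5 with an unadjusted p under 0.05), 1 of 7 without control 3 and 1 of 8 without knockout 3. In the limma fit without control 2, 0.219% of all probes were called and 17.6% had an unadjusted p under 0.05. The summed neutrophil signal was 167388.0 to 174756.8 in the controls and 96482.8 to 112775.9 in the knockouts, and its part in the values of Hdc and Cxcr2, which neutrophils also express, was not tested.

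Macrophage markers were lower in 8 of 8 tested genes with 0 called (5 with an unadjusted limma p under 0.05; median -0.76), and lymphocyte markers in 7 of 8 with 0 called (0 under 0.05; median -0.44, and -0.15 without control 2). Over all probes, 3.97% were called and 26.8% had an unadjusted limma p under 0.05. Fibroblast markers were lower in 8 of 8 (median -0.57), and 2 were called, where 2.42% of all probes were called lower. These were Pdgfrb (-1.17, SE 0.20, limma adjusted p = 0.0395) and Twist2 (-3.87, SE 0.38, limma adjusted p = 0.0169). With 1 array left out, at most 1 fibroblast marker was called, and none without control 3 or knockout 3. The tested smooth muscle genes were higher in 6 of 6 (median 0.36) and the epithelial genes in 9 of 9 (median 1.16, and 0.53 without control 2). Each list had 0 called and 2 under an unadjusted limma p of 0.05, and 26.8% of all probes were under it. The summed epithelial signal ranged from 133411.6 in control 2 to 420522.6 in control 1 and from 422932.1 to 467509.2 in the knockouts. The part of these marker levels in the values of the mast cell genes was not tested.

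**Figure D4:**
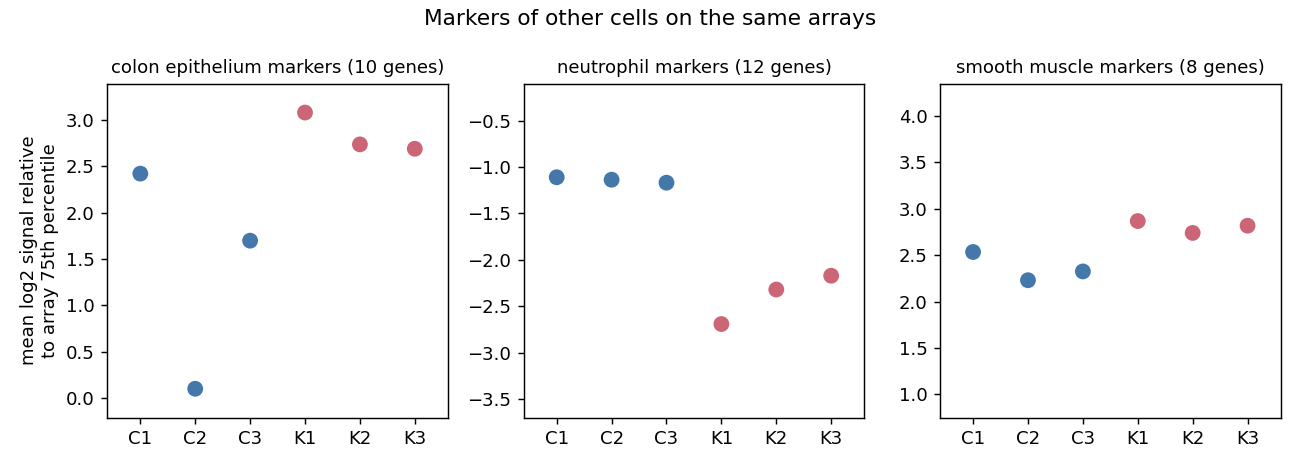
Mean level of the marker lists of colon epithelium, neutrophils and smooth muscle on each array (mean log2 signal, with 0 at the 75th percentile; controls C1 to C3 in blue, knockouts K1 to K3 in red; each panel has its own range). Control 2 is lowest for the epithelium at 0.10, and the neutrophil mean lies between -1.17 and -1.11 in the controls and between -2.69 and -2.17 in the knockouts.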

How the data were processed

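Colon RNA of 6 male mice, 3 per genotype, was measured on 1 single-colour Agilent array each; groups were taken from the genotype in the labels. The deposited processed signal is an intensity on a linear scale, made by the authors with Agilent Feature Extraction 11.5.1.1 (10.7 per the submitters' processing notes) after background subtraction, per the file headers. The labels name Cy3 and a green column, whereas the files hold the red channel alone, which was used. The deposited series value table held the same intensities (correlation of log2 values with the scanner signal at least 0.999999).

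Levels are log2 of that signal less its 75th percentile over the non-control spots of each array. Spots with the software's outlier marks (3.26% to 16% per array, 10.7% to 56.8% of the brightest 10%) were treated as missing; none was saturated. The test took the 35351 of 56605 probes that 1 group or both showed well above background on every array and that kept 2 or more usable values per group. Differences are knockout minus control, two-sided, from limma 3.58.1 (lmFit, eBayes; R 4.3.3), with Benjamini-Hochberg adjustment over all tested probes at 5%. The labels do not state replicate numbers or cohorts. The p-values set each difference between the groups against the spread of these samples within the groups, and 3 arrays per group limit the precision. Tested on simulated data with the 35351 probes of this comparison, the fit found 49% of 200 altered probes (70.9% where the simulated log2 change was 2 or more); it made 100 calls, 2 of them false and 0 with the wrong sign.

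Probes were named through RefSeq accessions (59.7% matched); the brightest probe stood for a gene in counts. The files place probes on mm9, so probe coordinates are not given. The genes named are Islr, the 10 members, called genes of the other lists, the 3 lowest p-values in the lists nearest to mast cells and the 5 genes most like the members; exceptions, named after their values were seen, are the neighbours in the chymase locus, Il33, Kitl, Ano1, Tpsg1 and genes named as not well above background. The members and lists were chosen with earlier results of these data known. Alternatives were normexp background correction (offset 50; on the median spot signal, as a mean column was not in the files) with the 75th percentile or quantile scaling, median centring, no filter on dim probes, outlier spots kept, array weights, the value table, and each array left out. Keeping outlier spots without the filter, and keeping them without control 2, were added after seeing the data.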

Additional observations from a re-analysis of the deposited data

How the results depend on the processing

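The count of called probes, 1403, was 2558 with normexp and the 75th percentile, 2773 with normexp and quantile scaling, 2249 with median centring, 484 without the filter on dim probes, 8119 with array weights and 2274 from the value table; with outlier spots kept it was 861 without the filter and 178 without control 2, both chosen after seeing the data. Leaving out 1 array gave 40 (without knockout 3) to 2114 calls (without control 1), with 71 without control 2, 90 without control 3 and 263 without knockout 1. The count of mast cell probes called, 0, was 1 with array weights (Tpsb2) and 1 with outlier spots kept and control 2 left out (Cpa3), and 0 to 1 over the leave-one-out fits. Cpa3 became testable only because both remaining controls were above background, so its call was partly set by that filter. The members' median of -0.085 became 0.68 with array weights and -1.56 with outlier spots kept and control 2 left out, and ranged from -1.56 to 0.33 over the leave-one-out fits. Mcpt2 turned to 0.89 with array weights, 0.020 without control 1 and 0.45 without control 3, and Cma1 to -0.084 without control 2, with outlier spots kept or not (-0.084 to 0.65 over the leave-one-out fits); the cause was not tested. Islr ranged from -2.58 to -2.34 in the 4 leave-one-out fits that could test it; it was -2.39 without knockout 3 (limma adjusted p = 0.0580) and could not be fitted without control 2 or 3, where 1 usable control remained. Calls among the other mast cell genes, 2, ranged from 1 to 4 over the alternatives on all arrays and from 0 to 2 with 1 array left out; those of the growth and homing signals, 3, from 1 to 7 and from 0 to 2; those of IgE receptor signalling, 1, from 0 to 3 and from 0 to 1. Dim probes (Cpa3, Ms4a2, Fcer1a, the second probe of Hdc and a probe of Il1rl1) give bounds only. No paired analysis was possible because the labels give no replicate numbers that are shared between the groups.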

Other observations

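The candidates were 6592 probes of named genes outside the members, usable and well above background on all 6 arrays. Each ranged over at least 1 on the log2 scale. Of these probes, 4 correlated above 0.9 with the mean of the 7 mast cell genes usable on every array. A gene with several probes is listed once, by the probe with the highest r. The 5 named genes most like that mean were Lrmda (r = 0.974), Klhdc8a (0.924), Zfp949 (0.891), Mrap2 (0.891) and Plod2 (0.827), over 6 arrays and with no test. Lrmda read -2.06, -4.77 and -2.51 in the controls and -3.23, -3.60 and -3.85 in the knockouts, so control 2 was below every knockout, as it was for Mcpt2. Plod2, a lysyl hydroxylase of collagen, read 0.21, -2.02 and -0.45 against -2.22, -1.10 and -2.75 (difference -1.27, SE 0.65; limma adjusted p = 0.261).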
